A study of Rattus norvegicus with 10 samples.

Results

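The genes described here encode the machinery that holds, primes and fuses synaptic vesicles, together with the family relatives that carry the same kind of name. They were taken from the deposited gene table by symbol: the synaptotagmins (Syt), syntaxins (Stx), SNAPs, VAMPs, synapsins (Syn1 to Syn3), Sv2 proteins, Rims, Unc13 proteins, complexins (Cplx) and syntaxin binding proteins (Stxbp). Of 64 such genes among the 32623 in the table, 60 reached an FPKM (a fragment count scaled by transcript length and library size) of 0.5 or more in 5 or more of the 10 libraries. These 60 are the members, out of 15169 genes that passed the same filter and were tested. The rule used symbols and levels, not a difference between the groups, although earlier results of these data were known when it was written.

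The study sequenced cerebral cortex poly(A) RNA from adult male Sprague-Dawley rats to look for genes linked to the opening of the blood-brain barrier by electroacupuncture (EA). The 5 EA rats were needled at GV20 and GV26 and stimulated at 3 mA and 2/100 Hz for 40 min, and the 5 controls were only restrained by binding, also for 40 min. All rats were then anesthetized with pentobarbital and perfused with saline before the cortex was taken, so both groups share restraint, anesthesia and perfusion. Each library is labelled as 1 cortex sample, no label names a batch, and the time between the stimulation and the removal of tissue is not given in the sources used here.

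A vesicle fuses when its VAMP pairs with a syntaxin and SNAP-25 on the plasma membrane to form the SNARE complex. Munc18 proteins, encoded by Stxbp genes, chaperone syntaxin, Unc13 proteins prime the complex, complexins hold it, and the calcium sensor synaptotagmin triggers fusion. Rim proteins tether vesicles and calcium channels at the active zone, and synapsins keep the reserve pool of vesicles together. Many syntaxins and VAMPs instead serve the Golgi, endosomes or lysosomes of every cell, so the set is wider than the synapse.

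What the symbols do not use is the sequence before each gene. For 46 of the 60 members RefSeq (rat build GRCr8) gave a gene start, with 59 windows of 250 bases upstream, since some genes have several starts. The windows were searched on both strands for 5 motifs. The GC box GGGCGG was in 62.7% of the members' windows and in 30.5% of the 33469 windows of all genes. The TATA box TATAAA was in 10.2% against 12.9%. The cyclic AMP response element TGACGTCA was in 3.39% against 1.59%, the Egr1 site GCGTGGGCG in 1.69% against 0.478%, and TTCAGCACC, the left part of the RE1 element bound by the repressor REST, in 0% against 0.305%. The members' windows were also richer in G and C, with a median of 61.2% and 16 CG pairs a window against 51.2% and 5 pairs in all windows. These are matches of letters, given as a description. The windows of all genes were not limited to the genes tested, whereas the members had passed the expression filter. The part of this difference and of base composition in the GC box share was not tested.

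The 5 windows shown are of 3 Rims, Unc13 and complexin genes, with lower means in EA, and 2 vesicle genes, with higher means. None of the 5 genes had an adjusted p under 0.05 in the comparison below, and the groups overlapped in FPKM for each. The windows were picked with these directions in view, and a link of motif to direction was not tested. They lie at chr9:32692773-32693022 on the minus strand (Rims1), chr16:18415787-18416036 minus (Unc13a), chr17:10236754-10237003 minus (Cplx2), chr10:54292539-54292788 plus (Vamp2) and chrX:3725495-3725744 plus (Syn1), all in GRCr8. Capitals mark motif matches, and the last base is the one before the gene start.
Rims1: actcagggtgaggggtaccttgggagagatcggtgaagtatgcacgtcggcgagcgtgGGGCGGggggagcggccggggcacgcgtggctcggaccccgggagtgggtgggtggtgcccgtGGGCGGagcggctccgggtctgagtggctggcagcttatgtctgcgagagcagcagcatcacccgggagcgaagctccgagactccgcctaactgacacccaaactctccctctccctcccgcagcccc
Unc13a: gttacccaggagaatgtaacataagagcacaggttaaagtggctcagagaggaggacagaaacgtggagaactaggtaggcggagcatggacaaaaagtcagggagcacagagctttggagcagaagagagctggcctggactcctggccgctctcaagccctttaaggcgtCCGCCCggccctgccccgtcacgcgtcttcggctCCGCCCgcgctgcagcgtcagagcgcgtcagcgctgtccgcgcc
Cplx2: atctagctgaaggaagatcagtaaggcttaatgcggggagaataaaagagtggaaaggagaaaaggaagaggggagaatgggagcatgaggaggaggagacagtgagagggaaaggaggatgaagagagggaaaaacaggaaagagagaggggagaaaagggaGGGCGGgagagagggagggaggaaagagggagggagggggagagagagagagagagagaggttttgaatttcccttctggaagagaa
Vamp2: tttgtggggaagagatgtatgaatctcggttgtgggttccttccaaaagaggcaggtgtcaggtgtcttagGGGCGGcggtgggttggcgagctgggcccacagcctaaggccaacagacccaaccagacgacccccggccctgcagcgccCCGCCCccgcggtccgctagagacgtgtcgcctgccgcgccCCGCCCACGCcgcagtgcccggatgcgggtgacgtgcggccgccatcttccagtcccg
Syn1: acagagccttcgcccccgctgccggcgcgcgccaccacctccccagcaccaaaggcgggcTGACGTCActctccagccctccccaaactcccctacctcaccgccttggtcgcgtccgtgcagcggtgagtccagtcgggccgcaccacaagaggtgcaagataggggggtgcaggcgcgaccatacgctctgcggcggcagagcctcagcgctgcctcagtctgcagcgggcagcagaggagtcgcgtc
The Rims1 window held GC boxes starting at -192 and -129, the Unc13a window at -78 and -44, and the Cplx2 window at -87 from the gene start. Vamp2 held GC boxes at -179, -99 and -58, and its Egr1 site at -57 overlaps the last of these. Syn1 held no GC box in this window but had a cyclic AMP response element at -190, a motif that only Vamp1 shared among the members matched.

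The libraries held 47843590 to 61707722 estimated counts, with the smallest in EA replicate 3. In every library this total exceeded the valid reads that the study lists, so the counts are not numbers of sequenced fragments. The effect of this on the fits was not tested. The lowest count of any member in any library was 24, so low counts limit mainly the least expressed members. Neuron, excitatory neuron and astrocyte markers were abundant in every library, and the 4 choroid plexus markers were all below the filter. Summed FPKM of 7 endothelial markers, 6 of them in the table, was 60.9 to 75.6 in controls and 51.1 to 59.4 in EA without overlap. Among these markers Cldn5 was below the filter and not tested. It was listed at 0 in all 5 EA libraries and at 0 to 1.254 in controls, with a mean of 0.309. No difference is read from values this near 0, and the reason for such low values was not tested. Of the 5 endothelial markers tested, Vwf, Tie1 and Flt1 had an unadjusted p under 0.05, all lower in EA, against 13.7% of all genes. Cdh5, with a log2 fold change of -0.03 (SE 0.089), and Slco1a4, with -0.25 (SE 0.149), did not. Summed FPKM of the 6 oligodendrocyte markers was 972 to 1414 in controls and 856 to 1112 in EA. Of 8 markers of other interneurons, 6 had log2 fold changes above 0, with a median of 0.16 over the 8. An unadjusted p under 0.05 was found for 4 (Gad1, Gad2, Vip and Reln), all higher in EA, against 13.7% of all genes. Cck and Sst, the most abundant of the 8, had log2 fold changes of -0.07 and -0.03. The summed FPKM of the 8 overlapped between the groups. Of the 4 parvalbumin interneuron markers tested none reached that p, and their median log2 fold change was -0.01. In bulk tissue, fewer cells of a type and less RNA per cell cannot be told apart, and the part of such shifts in the values below was not tested. EA replicates 2 and 5 stood apart in structural RNA, with Rn7sl1 at 188 and 298 FPKM against 4.70 to 11.98 in the other 8 libraries, so counts are also given without them.

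As a set, the members were among the well expressed genes of the cortex. Their mean FPKM ran from 0.671 for Stx11 to 907 for Snap25 with a median of 20.6, against 7.56 for all genes tested. There were 11 members above 100 FPKM, 34 from 10 to 100 and 15 under 10. The leading 5, Snap25, Vamp2, Cplx2, Cplx1 and Syt1, together held 50.5% of the members' summed FPKM. All members together made up 1.305 to 1.351% of the FPKM outside the mitochondrial genome in controls and 1.251 to 1.415% in EA, with the controls inside the EA range. Annotation in the table tied 23 of the 60 (38.3%) to the synaptic vesicle and 27 (45%) to the SNARE complex, against 0.864% and 0.27% of the genes tested. The Golgi term was carried by 13 (21.7%) and the endosome term by 8 (13.3%), against 6.01% and 2.63%.

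**Figure D1:**
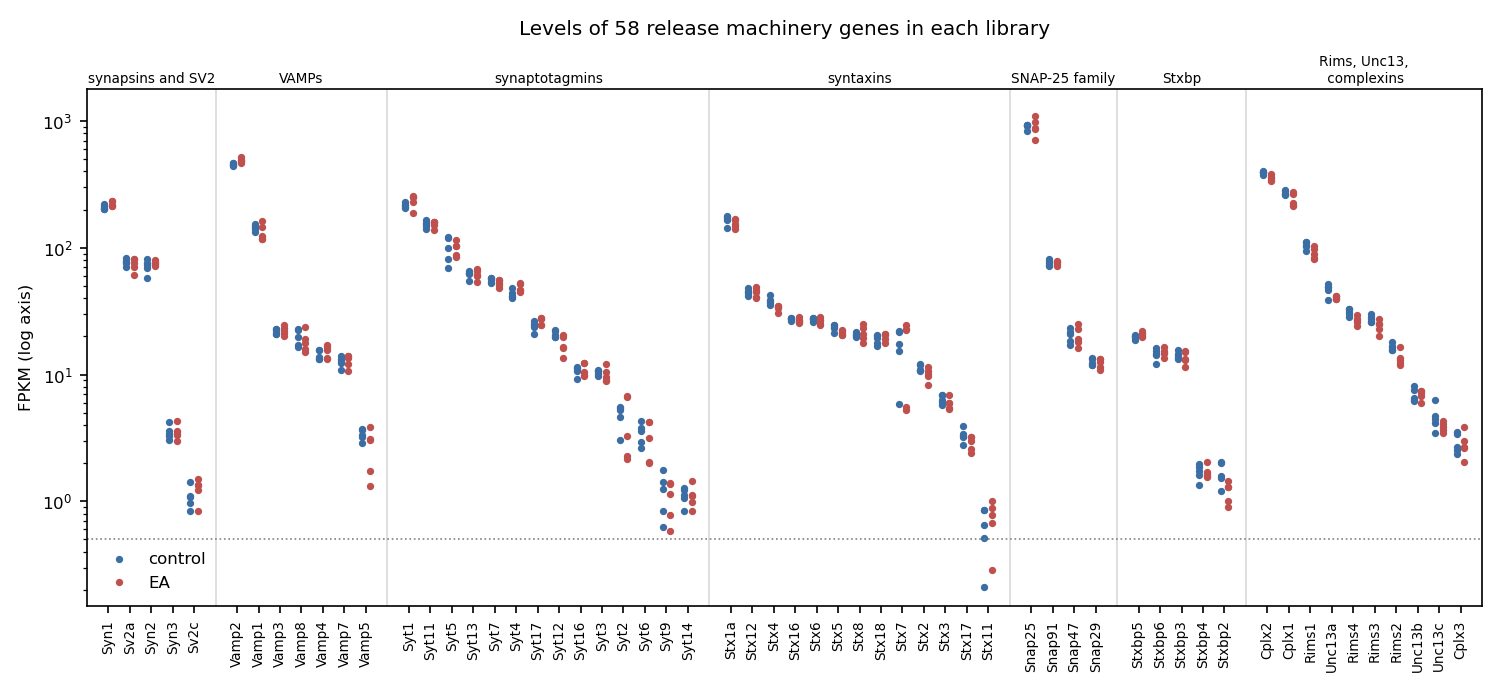
FPKM on a log axis of 58 of the 60 members in the 5 control (blue) and 5 EA (red) libraries, grouped by role and ordered by mean within a role; the dotted line is the filter of 0.5. Among the members with a wide spread on this axis are Stx7, Stx11, Syt2, Syt9 and Vamp5, and levels span from under 1 to near 1000.

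Several roles had a dominant gene. Snap25, the plasma membrane SNARE of neurons, held 87.0 to 90.7% of the summed FPKM of the SNAP genes over the 10 libraries. Vamp2, the main vesicle SNARE, held 66.4 to 71.9% of the VAMPs. At the filter, Stx11 (mean 0.671 FPKM, at the minimum in 8 libraries) and Syt14 (mean 1.099) were the members nearest inside, and Syt10 (mean 0.346, at the minimum in 2 libraries) and Syt15 (mean 0.136) the nearest outside. Syt8 and Cplx4, the latter known from retina, were the other symbols below it. Snap23 and Sv2b had no row under those symbols. A row with the symbol AC126641 that the table describes as synaptic vesicle glycoprotein 2b is not a member. It had 54.6 ± 4.12 FPKM (SD, n = 5) in controls and 59.1 ± 6.78 (SD, n = 5) in EA, and its log2 fold change was 0.14 (SE 0.070, edgeR adjusted p = 0.414).

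EA was compared with control in 1 edgeR quasi-likelihood fit over all 15169 genes, with Benjamini-Hochberg adjustment over all of them. Called genes are those whose adjusted p was below 0.05 with more than a 1.2-fold change. None of the 60 members was called in either direction, with 0.0198% of all genes called higher and 0% called lower. The lowest adjusted p of a member was 0.207, and DESeq2 also called 0 members, with 1.09% of all genes called. DESeq2 gave no adjusted p to Stxbp2, Vamp5, Syt9, Syt14 and Stx11, so it could not call these. At an unadjusted p under 0.05 there were 14 members (23.3%) against 13.7% of all genes. Of these, 5 had higher values in EA (8.33%, against 6.59% of all genes) and 9 had lower values (15%, against 7.15%). Among the 3489 genes at or above the members' median level, the share was 18.9%, with 9.31% higher and 9.54% lower. Without EA replicates 2 and 5 the count was 7 members (11.7%, against 8.72% of all genes), and without control replicate 5 it was 9 (15%, against 11.3%).

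The members' differences were small. Log2 fold changes of EA over control were above 0 for 27 members (45%, against 49.5% of all genes) and below 0 for 33, with a median of -0.02 against -0.002 over all genes tested. In size, 3 of the 60 (5%) exceeded a 1.2-fold change, against 15.4% of all genes. The members' median SE was 0.080 on the log2 scale, against 0.0996 for all genes tested and 0.060 for the 3489 genes at or above the members' median level. The part of level and SE in the share past a 1.2-fold change was not tested. For 28 members the whole 95% interval lay within a 1.2-fold change either way, so for these a larger difference lay outside the interval, while for the rest the interval reached past it. In FPKM the groups did not overlap for 1 member (1.67%), Stx4, against 3.11% of all genes. Stx4 was lower in EA, as were 2.25% of all genes, and no member was higher without overlap, against 0.85%. In scaled counts (CPM, TMM scaling) they did not overlap for 2 (3.33%), Vamp2 and Stx4, against 3.04%.

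**Figure D2:**
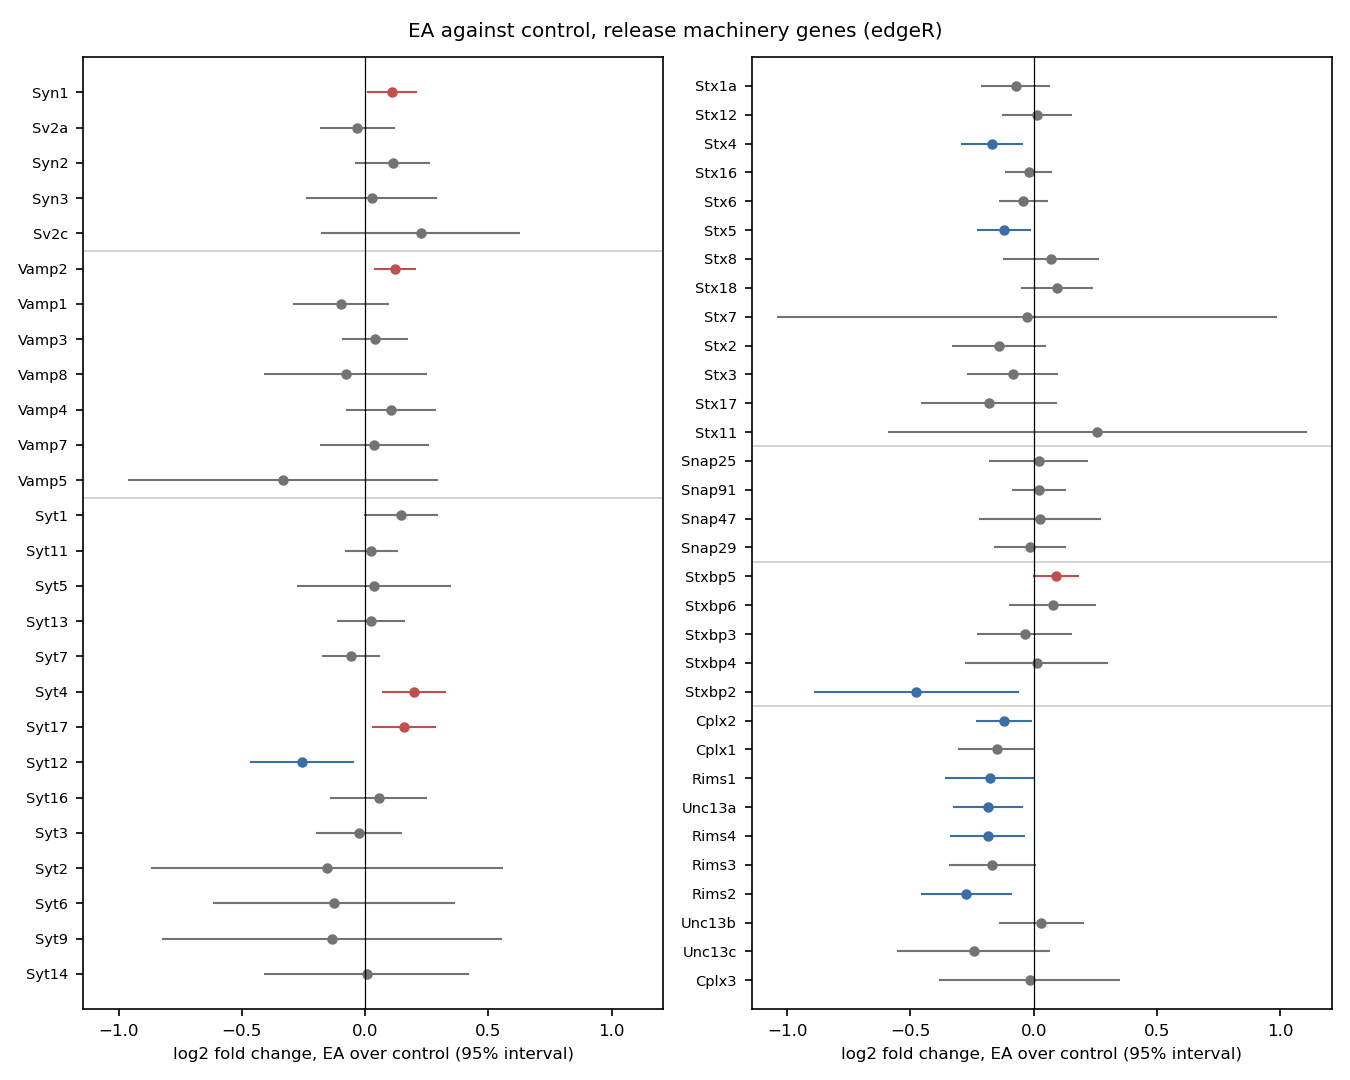
Log2 fold change of EA over control with its 95% interval from the edgeR fit for 58 of the 60 members, in blocks divided by role: on the left synapsins and SV2, VAMPs and synaptotagmins, on the right syntaxins, SNAPs, Stxbp genes, and Rims, Unc13 and complexins. Red and blue mark the 5 higher and 9 lower members at an unadjusted p under 0.05; 9 of the 10 points in the last block lie below 0.

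The Rims, the Unc13 proteins and the complexins had lower values in EA for 9 of their 10 members. They are called release site genes here as a label only, since complexins bind the SNARE complex. The median log2 fold change of the 10 was -0.17, and none was called by edgeR or DESeq2. Of the 10, 5 had an unadjusted p under 0.05, all of them lower (50%, against 7.15% of all genes). That count depended on the libraries used. In the fit without EA replicates 2 and 5, Rims2 stayed under that p, while Rims1, Rims4, Unc13a and Cplx2 did not. Rims3 and Cplx1 came under it there, both lower, and the group's median log2 fold change was -0.15. Of all genes tested, 50.5% had a log2 fold change below 0. Summed FPKM of the 10 genes was 876, 914, 916, 925 and 893 in control replicates 1 to 5 and 837, 841, 821, 755 and 769 in EA replicates 1 to 5. Every EA library was below every control library, in FPKM and in scaled CPM. The means were 905 ± 19.6 (SD, n = 5) and 805 ± 40.2 (SD, n = 5), a difference of -11.1%. The sum is carried by the complexins, since Cplx2 alone held 42.1 to 46.6% of it, and it is given as a description with no test.

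Rims2 encodes RIM2, an active zone scaffold that binds Rab3 and calcium channels, and lies at chr7:78092037-78594138 on the plus strand (Rnor_6.0). Its FPKM was 18.1, 15.6, 16.8, 16.6 and 15.5 in the controls and 16.5, 13.6, 11.96, 13.1 and 12.2 in EA. EA replicate 1 lay among the controls and the other 4 EA libraries were below all of them. Rims2 had a log2 fold change of -0.27 (SE 0.083, unadjusted p = 0.00662, edgeR adjusted p = 0.222). Rims2 was one of 3 members, with Syt4 and Vamp2, whose unadjusted p was under 0.05 in all 20 settings tried, and its DESeq2 adjusted p was 0.0575.

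Its relative Rims1, expressed at a higher level, had 112, 103, 111, 103 and 95.1 FPKM in the controls and 97.4, 82.8, 103, 81.1 and 89.9 in EA. The groups overlapped, with EA replicates 2, 4 and 5 below all controls. For Rims1 the log2 fold change was -0.18 (SE 0.081, edgeR adjusted p = 0.355). Rims4, a short family member without the Rab3 binding part, had 28.5 to 32.8 FPKM in controls and 24.3 to 29.3 in EA, with a log2 fold change of -0.19 (SE 0.068, edgeR adjusted p = 0.267). Rims3, also short, had a log2 fold change of -0.17 (SE 0.079, edgeR adjusted p = 0.378). All 4 Rims thus had lower means in EA by similar amounts, and none passed the adjusted threshold.

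Unc13a encodes Munc13-1, the main priming factor of cortical excitatory synapses, at chr16:20056765-20097287 on the minus strand (Rnor_6.0). The controls had 38.7, 51.8, 46.6, 49.4 and 48.9 FPKM and the EA libraries 41.8, 39.2, 41.2, 39.3 and 41.8. Control replicate 1 was the lowest of all 10 libraries, and the other 4 controls were above every EA library. Unc13a thus had a log2 fold change of -0.19 (SE 0.063, edgeR adjusted p = 0.247). Unc13b had 6.91 ± 0.871 (SD, n = 5) FPKM in controls and 6.95 ± 0.603 (SD, n = 5) in EA, the one member of the 10 with a log2 fold change above 0 (0.03, 95% interval -0.14 to 0.20). Unc13c had a log2 fold change of -0.24 (SE 0.140, edgeR adjusted p = 0.473).

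Cplx2 and Cplx1 encode the small proteins that bind the assembled SNARE complex. Cplx2 had 376, 392, 401, 395 and 398 FPKM in the controls and 352, 361, 383, 338 and 340 in EA. Only EA replicate 3 reached into the control range. The log2 fold change was -0.12 (SE 0.050, edgeR adjusted p = 0.321). Cplx1 split the EA libraries, with 267 and 276 FPKM in EA replicates 1 and 2, inside the control range of 261 to 284, and 215, 219 and 224 in EA replicates 3, 4 and 5, below it. Its log2 fold change was -0.15 (SE 0.070, edgeR adjusted p = 0.367). Cplx3, at 2.89 and 2.82 mean FPKM, had a log2 fold change of -0.02 with an interval of -0.38 to 0.35.

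**Figure D3:**
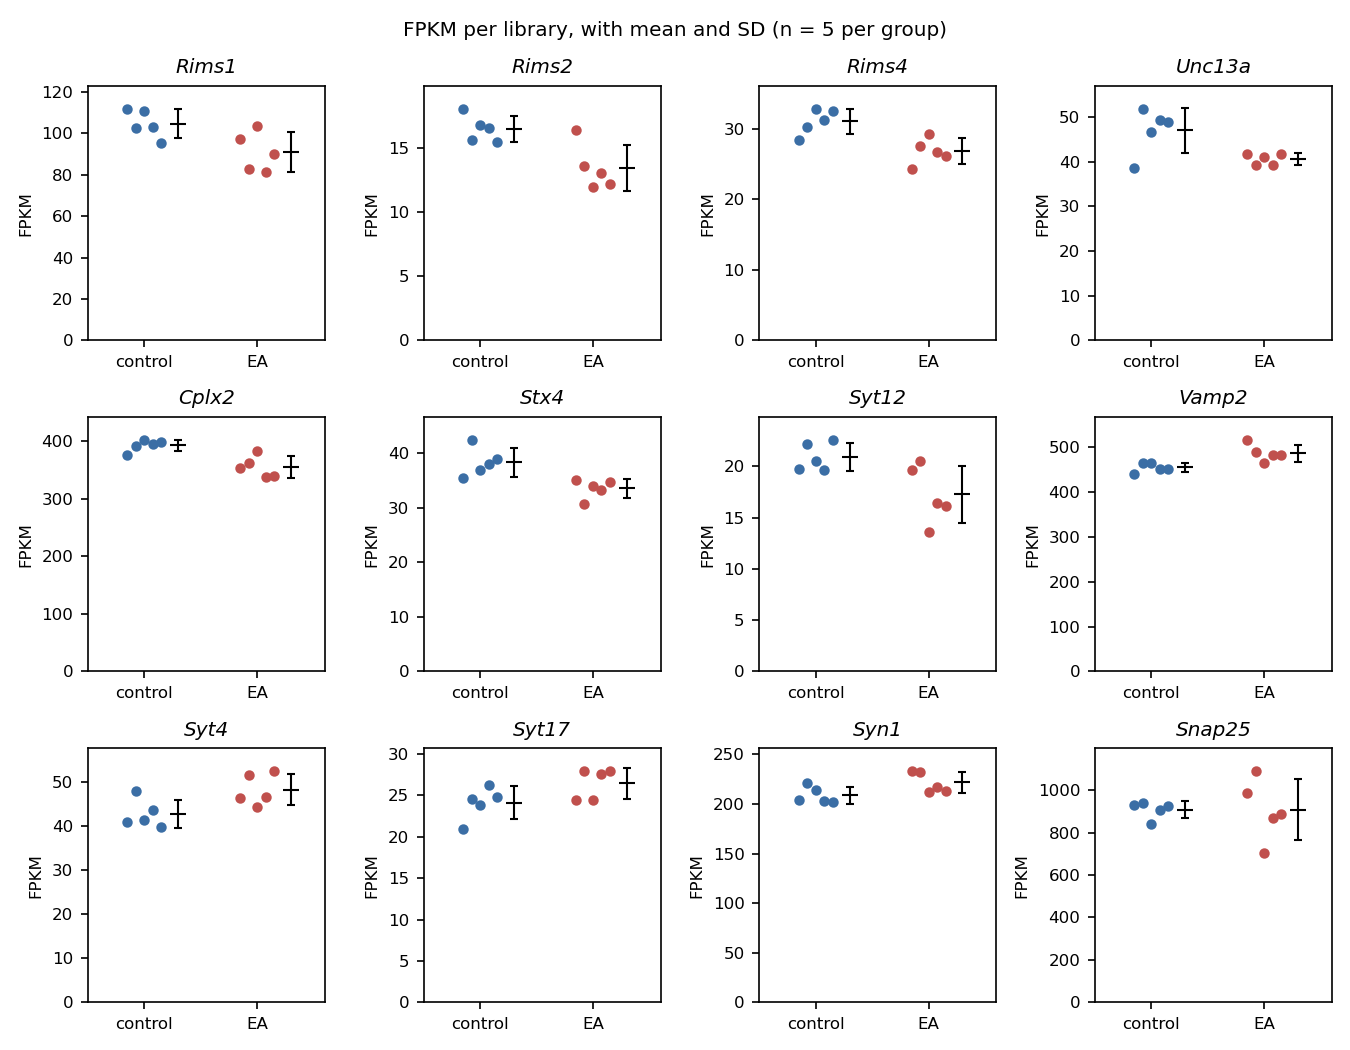
FPKM of 12 members in each library (blue control, red EA; replicates 1 to 5 from left to right), with the mean and SD of each group in black; each axis starts at 0. Rims1, Rims2, Rims4, Unc13a, Cplx2, Stx4 and Syt12 have lower means in EA, Vamp2, Syt4, Syt17 and Syn1 higher means, and Snap25 equal means with a wide spread in EA.

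Among the vesicle proteins Vamp2, Syn1 and Syt1, the most expressed of their roles, had higher means in EA, and none passed the adjusted threshold. Vamp2 (chr10:55675575-55679450, plus strand, Rnor_6.0) had 441, 465, 465, 453 and 452 FPKM in the controls and 516, 490, 464, 484 and 483 in EA. EA replicate 3 fell within the control range in FPKM, while in scaled CPM all EA libraries (1085 to 1174) were above all controls (998 to 1047). In the edgeR fit Vamp2 had a log2 fold change of 0.12 (SE 0.037, unadjusted p = 0.00656, edgeR adjusted p = 0.222), and the DESeq2 adjusted p was 0.0607. Vamp1, its closest relative, had a log2 fold change of -0.10 (95% interval -0.29 to 0.09).

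Of the 7 VAMPs 4 had log2 fold changes above 0 and Vamp2 alone had an unadjusted p under 0.05 (14.3%, against 13.7% of all genes). Vamp3, Vamp4 and Vamp7, which serve endosomes and lysosomes as well, had log2 fold changes of 0.04 to 0.11, and Vamp8 -0.08. Vamp5, a VAMP first described in muscle, had 2.88 to 3.71 FPKM in controls and 3.07, 1.32, 3.04, 3.83 and 1.74 in EA. Its low values were those of EA replicates 2 and 5, the libraries rich in Rn7sl1, and its log2 fold change of -0.33 (SE 0.287) became 0.03 without them.

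Syn1, the synapsin that coats the reserve vesicles, had 204, 222, 214, 203 and 202 FPKM in the controls and 233, 232, 212, 218 and 214 in EA. EA replicates 1 and 2 were above all controls and the other 3 were within the control range. The log2 fold change was 0.11 (SE 0.044, edgeR adjusted p = 0.315). Syn2 had a log2 fold change of 0.11 (SE 0.068, edgeR adjusted p = 0.495) and Syn3 of 0.03 (95% interval -0.24 to 0.29), so all 3 synapsins were on the same side. Each synapsin gene overlaps a Timp gene on the opposite strand (Timp1, Timp4 and Timp3), and whether the counting used the strand is not stated, so their counts are uncertain to that extent. Sv2a, the vesicle glycoprotein bound by the drug levetiracetam, had a log2 fold change of -0.03 (95% interval -0.18 to 0.12), and Sv2c, at 1.09 and 1.24 mean FPKM, of 0.23 (SE 0.183).

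The synaptotagmins were divided, with 8 of 14 log2 fold changes above 0 and a median of 0.01. Syt4, an activity regulated member found on dense core vesicles, had 40.9, 48.1, 41.4, 43.7 and 39.9 FPKM in the controls and 46.3, 51.6, 44.4, 46.7 and 52.5 in EA. Control replicate 2 lay within the EA range and the other 4 controls were below every EA library. Syt4 had a log2 fold change of 0.20 (SE 0.057, unadjusted p = 0.00464, edgeR adjusted p = 0.207), the lowest p of the members, and the DESeq2 adjusted p was 0.0543.

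Syt17, a relative also known as B/K protein, had 21.0 to 26.3 FPKM in controls and 24.4 to 27.9 in EA, with a log2 fold change of 0.16 (SE 0.058, edgeR adjusted p = 0.272). Syt12, which lacks the calcium binding of the classical members, had lower values in EA. Its levels were 19.7, 22.1, 20.5, 19.6 and 22.5 FPKM in the controls and 19.7, 20.5, 13.6, 16.4 and 16.1 in EA. As with Cplx1, EA replicates 1 and 2 were within the control range and the other 3 EA libraries were below it. The log2 fold change was -0.26 (SE 0.095, edgeR adjusted p = 0.274).

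Syt1, the fast calcium sensor of cortical synapses, had 207 to 230 FPKM in controls and 253, 257, 189, 230 and 250 in EA, so that EA replicate 3 was the lowest of the 10 and EA replicates 1, 2 and 5 the highest. Its log2 fold change was 0.15 (SE 0.067, edgeR adjusted p = 0.365). Syt11, next in level, had equal means of 153 and 154 FPKM and a 95% interval of -0.08 to 0.13. Syt7, the sensor of slower release, had a log2 fold change of -0.06 (95% interval -0.17 to 0.06). Syt2, the fast sensor of a subset of inhibitory neurons in the cortex, was the synaptotagmin with the widest relative spread within EA, with 6.68 and 6.78 FPKM in replicates 1 and 2 and 2.14 to 3.24 in the other 3.

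The syntaxins had 10 of 14 log2 fold changes below 0 (71.4%, against 50.5% of all genes) with a median of -0.05. At an unadjusted p under 0.05 there were 2 (14.3%, against 13.7% of all genes). Both were lower, as were 7.15% of all genes at that p. Stx4, a plasma membrane syntaxin of many cell types that also serves exocytosis in dendrites, lies at chr1:199287710-199294979 on the plus strand (Rnor_6.0). It had 35.3, 42.3, 36.9, 38.0 and 38.9 FPKM in the controls and 35.0, 30.6, 34.0, 33.2 and 34.7 in EA. All EA values were below all control values, although EA replicate 1 was close to control replicate 1. Stx4 had a log2 fold change of -0.17 (SE 0.055, unadjusted p = 0.00986, edgeR adjusted p = 0.236). The summed endothelial markers were likewise lower in every EA library, and their part in the Stx4 values was not tested.

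Stx5, the syntaxin of transport between the endoplasmic reticulum and the Golgi, had 21.4 to 24.7 FPKM in controls and 20.5 to 22.4 in EA, with a log2 fold change of -0.12 (SE 0.048, edgeR adjusted p = 0.306). Stx1a, a syntaxin of the neuronal plasma membrane, had a log2 fold change of -0.07 (95% interval -0.21 to 0.06). Stx7, a late endosome syntaxin named after its values were seen, took 2 separate levels. It had 5.89 FPKM in control replicate 2 and 5.55 and 5.24 in EA replicates 1 and 3, and 15.3 to 24.4 in the other 7 libraries. The split ran across both groups, and the gene had the largest SE of the members, 0.464, on a log2 fold change of -0.03.

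The SNAP genes were nearly the same on average in EA and control, with log2 fold changes of -0.01 to 0.02. Snap25 had 929, 938, 838, 907 and 926 FPKM in the controls and 988, 1089, 704, 871 and 885 in EA. EA replicate 2 was the highest and EA replicate 3 the lowest of the 10, so the SD was 144 in EA and 40.5 in controls around means of 907 and 908. Its log2 fold change was 0.02 (95% interval -0.18 to 0.22). Within EA, replicates 1 and 2 were also the highest and replicate 3 the lowest for Sv2a. EA replicate 3 was the smallest library and had the largest mitochondrial share of FPKM, 46.7%, and the part of either in these values was not tested. Snap91 encodes AP180, a clathrin adaptor that shares only its letters with the SNAP-25 family, and had a log2 fold change of 0.02 (95% interval -0.08 to 0.13).

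Of the 6 Stxbp genes 3 had log2 fold changes above 0. Stxbp5 encodes tomosyn, which competes with VAMPs for the SNARE complex, and had 18.9 to 20.7 FPKM in controls and 19.8 to 22.2 in EA, with a log2 fold change of 0.09 (SE 0.041, edgeR adjusted p = 0.359). Stxbp2 encodes Munc18-2, known from blood cells and epithelia. It had 1.58, 2.05, 1.53, 1.21 and 2.00 FPKM in the controls and 1.00, 0.905, 1.302, 1.29 and 1.43 in EA. Control replicate 4 lay within the EA range and the other 4 controls were above it. The log2 fold change of -0.48 was the largest in size of the members, with an SE of 0.189 and an edgeR adjusted p of 0.301.

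**Figure D4:**
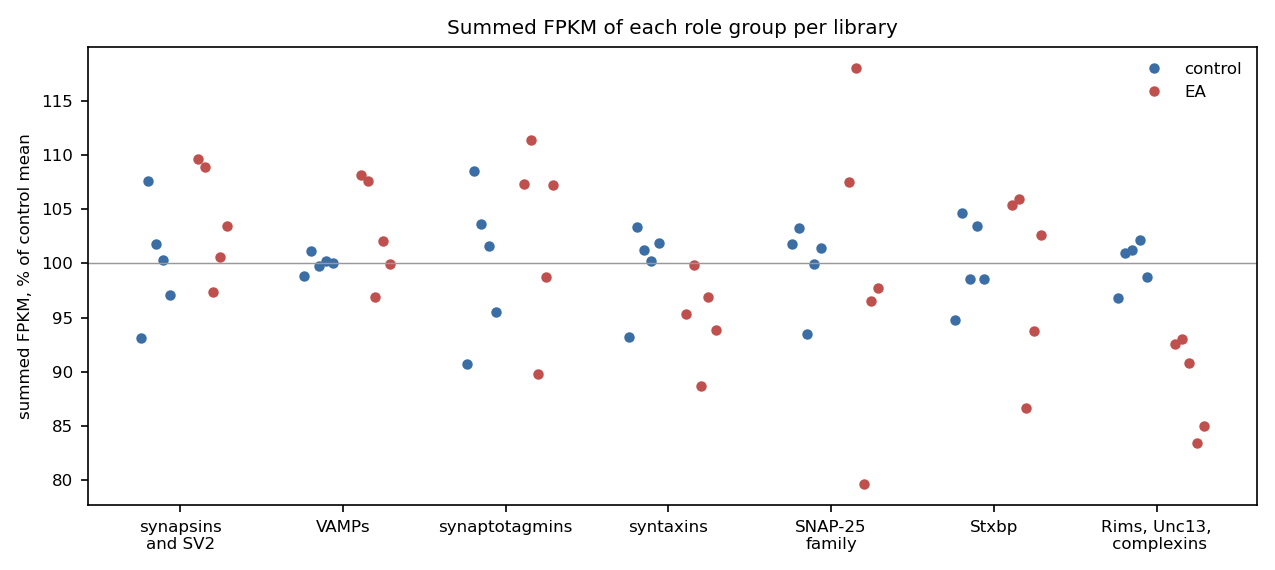
Summed FPKM of each role group in each library as a percent of the control mean (blue control, red EA; the axis does not start at 0). The Rims, Unc13 and complexin sums are lower in all 5 EA libraries than in any control, and in the other 6 groups the EA and control libraries overlap.

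Set side by side, the role groups differed in direction by small amounts. The summed FPKM of EA was 2.93% above the control mean for VAMPs, 3.98% for synapsins and SV2 and 2.89% for synaptotagmins. It was below the control mean by -0.0727% for the SNAPs, -1.11% for the Stxbp genes, -5.09% for syntaxins and -11.1% for the release site genes. In summed FPKM, EA replicate 3 was the lowest of the 10 libraries for the SNAPs, Stxbp genes, VAMPs, synaptotagmins and syntaxins. EA replicate 4 was the lowest for the release site genes. Sums in scaled CPM had the same lowest libraries except for the VAMPs. There control replicate 4 was lowest at 1497 and EA replicate 3 had 1545.

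The balance between close relatives was followed as the log2 ratio of their FPKM within each library. Syn1 exceeded Syn2 by 2.94-fold in controls and 2.92-fold in EA, and Rims1 exceeded Rims2 by 6.33-fold and 6.77-fold. Cplx1 to Cplx2 stood at 0.690 and 0.674. The Vamp1 to Vamp2 log2 ratio was -1.66 ± 0.10 (SD, n = 5) in controls and -1.88 ± 0.18 (SD, n = 5) in EA, with 4 EA libraries below all controls and EA replicate 2 within the control range. Unc13a exceeded Unc13b by 6.82-fold in controls and 5.86-fold in EA. The Syt1 to Syt2 ratio ran from 37.9 to 107 over the 10 libraries. In all 6 pairs plotted the groups overlapped, and these ratios were not tested.

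**Figure D5:**
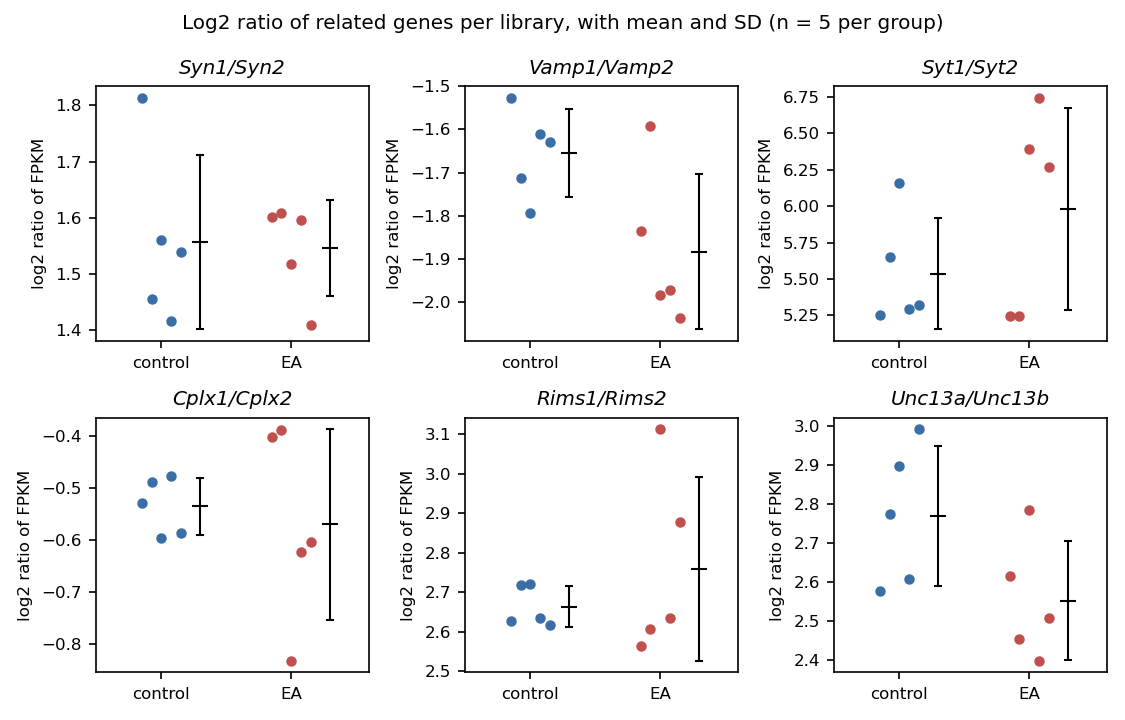
Log2 ratio of the FPKM of 6 pairs of related members in each library (blue control, red EA), with the mean and SD of each group in black; each panel has its own axis. The EA and control libraries overlap in all 6 pairs, and the spread is wider in EA for Cplx1/Cplx2, Rims1/Rims2, Syt1/Syt2 and Vamp1/Vamp2.

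Other genes of the vesicle cycle were read from 5 lists of 91 genes, of which 88 were tested. Neither edgeR (0.0198% of all genes called) nor DESeq2 (1.09%) called any of them, and 10 (11.4%, against 13.7% of all genes) had an unadjusted p under 0.05, 5 higher and 5 lower. DESeq2 gave no adjusted p to Lin7a, Rph3al, Rab27b and Sypl2, so it could not call these. The median log2 fold change of the 88 was 0.005. DESeq2 gave the active zone gene Ppfia3 an adjusted p of 0.0465 with a fold change under 1.2. Of 28 active zone scaffold and priming genes 3 had higher and 3 lower values at that unadjusted p (21.4% in all, against 13.7% of all genes). That is 10.7% in each direction, against 6.59% higher and 7.15% lower of all genes. Ppfia3, which encodes liprin-alpha-3, a binding partner of the Rims, had 73.0 to 77.0 FPKM in controls and 57.2 to 68.5 in EA without overlap, and a log2 fold change of -0.20 (SE 0.056, edgeR adjusted p = 0.199). Lin7b, an adaptor next to it on the same chromosome, had -0.19 (SE 0.062). Pclo and Erc2, large scaffolds that bind the Rims, had 0.22 (SE 0.084) and 0.28 (SE 0.114). Their paralogs Bsn and Erc1, named after their values were seen, had -0.07 (95% interval -0.21 to 0.06) and -0.32 (95% interval -0.66 to 0.02).

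Of 20 tested vesicle membrane proteins and transporters 1 had an unadjusted p under 0.05 (5%, against 13.7% of all genes). It was Rab3c, a Rab3 that Rims can bind, with a log2 fold change of 0.52 (SE 0.236, edgeR adjusted p = 0.362). Of 29 vesicle retrieval genes 3 were under that p (10.3%, also against 13.7%). Synj1, the phosphatase that uncoats vesicles, had a log2 fold change of 0.11 (SE 0.042). Dnm2 and Fcho1, of membrane scission and coat assembly, had -0.17 (SE 0.060) and -0.16 (SE 0.058). The 4 SNARE disassembly genes and the 7 presynaptic calcium channel genes had none at that unadjusted p, with median log2 fold changes of 0.06 and 0.02.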

How the data were processed

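Poly(A) RNA of rat cerebral cortex was sequenced by the study as stranded paired reads. Per the study's methods, adapters were removed by the authors using Cutadapt 1.9. Alignment used HISAT2 2.0.4, assembly StringTie 1.3.4d and merging gffcompare 0.9.8, and ballgown gave FPKM. The submitters' notes list Bowtie 0.12.2, StringTie 1.3.0, HISAT2 2.0 and the build Rnor_6.0. FPKM values were deposited by the authors beside estimated counts, deposited as whole numbers, and how the counts were drawn from the assembly and whether they used strand is not given in the sources used here. An FPKM of 0.0001 stands for 0.

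Genes that reached 0.5 FPKM in 5 of the 10 libraries were tested on the counts with edgeR 4.0.16 (TMM, quasi-likelihood F test, Benjamini-Hochberg adjustment) in R 4.3.3, without blocks. The SE is the log2 fold change divided by the root of F, and 95% intervals use the t distribution of the fit. DESeq2 1.42.0, limma 3.58.1 on log2(FPKM + 0.1) or log2(FPKM + 1), other scalings and filters and left-out libraries were alternatives. P-values weigh the difference between the groups against the spread between libraries. Replicate numbers did not pair the samples: correlations of same-numbered deviations were 0.0047 to 0.066. No 2 libraries of the same group were alike within counting noise.

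The members and the gene lists were chosen with earlier results of these data known. Named were members with an unadjusted p under 0.05, with groups that do not overlap, with the 2 highest levels of a role or the 3 largest fold changes, those nearest the filter, fixed pairs of relatives, and up to 4 genes per other list. Rims3, Unc13b, Unc13c, Cplx3, Stx7, Syt7, Bsn, Erc1 and the other genes named beyond these were added after their values were seen. Upstream sequences came from RefSeq (GRCr8), with positions counted back from the gene start, and 14 members had no entry, among them Snap25 and Rims2. Of the members, 2 count in the totals but are not reported singly here.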

Additional observations from a re-analysis of the deposited data

How the results depend on the processing

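Across the 19 alternatives none of the members was called in any, and all 14 members with an unadjusted p under 0.05 kept the sign of their log2 fold change in each. The members to which DESeq2 gave no adjusted p could not be called there. Rims2, Syt4 and Vamp2 stayed under an unadjusted p of 0.05 in all 20 settings, Rims4, Stx4 and Unc13a in 19, Syt12 in 18 and Syt17 in 17. Cplx2, Stx5 and Stxbp2 did so in 14, Syn1 in 13, Rims1 in 10 and Stxbp5 in 7. The count of members under that p was 7 without EA replicates 2 and 5, and 9 to 14 when 1 library was left out, the lowest without control replicate 5. For the other vesicle cycle genes it was 10, with 2 without EA replicates 2 and 5 and 6 (without EA replicate 5) to 18 (without EA replicate 3) with 1 library left out. Over all genes, 3 were called higher and 0 lower. DESeq2 called 69 and 97, limma with a pseudocount of 0.1 called 1 and 1, limma with a pseudocount of 1 called 1 lower, and the fit without EA replicates 2 and 5 called 2 lower. With 1 library left out 1 to 5 were called higher and 0 to 1 lower. Scaled CPM in place of FPKM, chosen after seeing the data, gave 2 members in place of 1 whose groups do not overlap. The causes were not tested.

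With the replicate number as a block, 0 genes were called higher and 14 members had an unadjusted p under 0.05. The numbers are shared labels only: 1 of the 5 pairs matched its own number best.

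The sign of small differences was not stable for Snap25 (-0.06 to 0.09 over the alternatives), Snap91, Sv2a (-0.08 to 0.02), Syt11, Syt14 (-0.11 to 0.09) and Vamp5 (-0.51 to 0.03), all above an unadjusted p of 0.05 throughout. Each symbol has 1 row in the table, so summing rows gave no other value, and the pairs with Sv2b and Snap23 were not analysed here. Low counts limit Stx11 and Vamp5 in particular.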
